A study of Mus musculus with 15 samples.

Results

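The transcripts described here are those encoded by the mitochondrial genome, measured in bulk RNA of mouse forebrain. They were taken as every row of the count table whose gene symbol starts with mt-, each gene identifier once, which gave 37 of 55487 genes. By the biotype given in the table, 13 are protein-coding mRNAs, 2 are ribosomal RNAs and 22 are transfer RNAs. All 37 lie on the mitochondrial chromosome of the mm10 build, so the label holds.

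All 15 libraries come from mice of the wildtype genotype, with 3 libraries in each of 5 groups. NT is no treatment. PLX1X is the group titled PLX 1x, and PLX3X_CD0 is the group titled PLX 3x. PLX3X_CD30 is the name given to libraries whose title says only PLX, and IR is the group titled IR-BMT. The labels used here do not spell out PLX, IR-BMT, CD0 or CD30, and they give no strain, age, sex, dose or time. They number replicates but do not say that each came from its own animal, so the tests rest on variation among libraries, part of which may be technical. They do not say that libraries of the same number are paired across groups, and the main tests pair none.

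The mitochondrial genome is a small circle of DNA inside the organelle. It codes for core subunits of respiratory complexes I, III and IV and of ATP synthase, and for the ribosomal and transfer RNAs that translate them, while nuclear genes supply every other subunit. Both strands are read as long precursors that are cut at the transfer RNAs, and most of the mature mRNAs receive short poly(A) tails. Neurons, which spend much energy on ion pumping, rely strongly on this respiratory chain.

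Total counts ran from 19249641 to 54801136 per library, and NT replicate 1 was the shallowest. The summed level of the hindbrain markers En2, Pax2 and Hoxb5, in TMM-normalised CPM (counts scaled to library size), was 1.19 to 1.43 in NT. The summed level of the microglial markers Csf1r, P2ry12, Tmem119 and Cx3cr1 was 293 to 347 in NT, 12.3 to 30.5 in PLX1X, 8.94 to 21.9 in PLX3X_CD0, 111 to 118 in PLX3X_CD30 and 111 to 128 in IR. The neuronal markers Snap25, Syt1, Rbfox3 and Syp summed to 4866 to 5507 in NT and to more in every treated library, from 5711 to 6630. The oligodendrocyte markers Mbp, Mog and Mag, a sum added after the data were seen, were at 4262 to 5252 in NT, 3579 to 3779 in PLX1X, 3000 to 3308 in PLX3X_CD0, 3607 to 3753 in PLX3X_CD30 and 3005 to 3332 in IR. All treated libraries were below all NT libraries for that sum. The astrocyte markers Slc1a2, Aqp4, Gja1 and Aldoc summed to 2224 to 2615 in NT and 2434 to 2565 in IR, and to less than in any NT library in PLX1X (1959 to 2127) and PLX3X_CD0 (1975 to 2043), with 2253 to 2298 in PLX3X_CD30. The endothelial markers Cldn5, Flt1, Pecam1 and Slc2a1 summed to 148 to 162 in NT, 151 to 170 in IR and between 166 and 186 in the PLX libraries. The choroid plexus markers Ttr, Folr1 and Kcnj13 summed to 9.11 to 23.6 in NT, 4.73 to 5.80 in PLX1X and 5.96 to 10.2 in PLX3X_CD30. They summed to 1519 in PLX3X_CD0 replicate 1 and 459 in IR replicate 1. No marker of these cell types was at 0. The microglial, neuronal, oligodendrocyte, astrocyte, endothelial and choroid plexus sums moved with groups compared below, the last also with 2 libraries. Their part in the mitochondrial results was not tested. In whole tissue, fewer cells of a type and less RNA per cell cannot be told apart.

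The genes themselves set a limit on what the counts mean, because stretches of mitochondrial DNA have been copied into nuclear chromosomes. On mm10 chromosome 1, minus strand, 7 annotated pseudogenes carry such copies. Over the aligned bases, Gm28661 is identical to mt-Co2, Gm10925 to mt-Atp6, Gm28437 to mt-Co3, Gm10222 to mt-Nd4l, and Gm28439 to the first 876 bases of mt-Nd4. Gm28438 differs from mt-Nd3 at 1 base, T3C, counted from the first base of the mitochondrial gene. Gm29216 covers the last 483 bases of mt-Co1 with 1 difference, A1066T. The first 150 bases of mt-Co2 (chrM:7013-7162, plus strand) and of its copy (chr1:24615416-24615565, minus strand) are printed here to show that a read of the length sequenced can match both. Capitals mark the start codon.
mt-Co2: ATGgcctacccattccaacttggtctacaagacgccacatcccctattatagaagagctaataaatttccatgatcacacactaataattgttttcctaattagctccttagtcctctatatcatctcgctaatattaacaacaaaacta
Gm28661: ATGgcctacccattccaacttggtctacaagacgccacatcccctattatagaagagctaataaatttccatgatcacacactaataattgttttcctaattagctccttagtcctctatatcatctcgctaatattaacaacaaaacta

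A contrast is the copy of the whole of mt-Co1 on chromosome 2, Gm13340, which differs from mt-Co1 at 37 of 1545 bases and shares no identical window of 150 bases with it. The first 150 bases of both (chrM:5328-5477, plus strand, and chr2:22589498-22589647, minus strand) show what separates reads from an older copy. Capitals mark the 3 bases that differ.
mt-Co1: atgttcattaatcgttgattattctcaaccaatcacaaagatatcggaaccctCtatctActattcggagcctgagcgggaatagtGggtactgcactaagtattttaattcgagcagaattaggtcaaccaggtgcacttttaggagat
Gm13340: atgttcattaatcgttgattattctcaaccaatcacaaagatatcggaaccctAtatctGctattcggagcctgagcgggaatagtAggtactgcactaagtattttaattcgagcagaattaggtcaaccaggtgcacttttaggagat

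The share of read-length windows that are identical in a chromosome 1 copy was 99.4% for mt-Co2, 99.4% for mt-Atp6, 99.8% for mt-Co3, 98% for mt-Nd4l and 97% for mt-Nd3. It was 59.2% for mt-Nd4 and 23.6% for mt-Co1. How the count table split reads between such pairs is not given in the sources used here. Over the 15 libraries the copy held a median of 46.8% of the counts of its pair for mt-Co2, 45.1% for mt-Atp6, 44.4% for mt-Co3 and 52.0% for mt-Nd4l, and 22.7% for mt-Nd3. The copy's median was 3.82% for mt-Nd4 and 8.10% for mt-Co1. The levels of the first 5 of these members are therefore uncertain, and reads of the copies and of the mitochondrial gene could not be told apart there.

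Compact gene order shows in 2 further sequences. The mt-Atp8 and mt-Atp6 coding regions overlap by 43 bases (chrM:7927-7969, plus strand), so a read there belongs to both rows. In the line below the capitals are the mt-Atp6 start codon and the mt-Atp8 stop codon.
mt-Atp8/mt-Atp6 overlap: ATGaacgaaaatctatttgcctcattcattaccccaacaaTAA

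For 3 of the 13 mRNAs the genome does not encode a whole stop codon. These are mt-Co3, mt-Nd4 and mt-Cytb, whose annotated ends stop at a T that becomes UAA only when the tail is added. The last 30 bases of mt-Nd4 (chrM:11515-11544), mt-Cytb (chrM:15259-15288) and mt-Co3 (chrM:9361-9390) are set against those of mt-Co1 (chrM:6843-6872), where the codon is complete. All are on the plus strand, and capitals mark the last codon as encoded.
mt-Co1 3' end: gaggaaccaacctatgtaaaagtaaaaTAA
mt-Nd4 3' end: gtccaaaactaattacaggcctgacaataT
mt-Cytb 3' end: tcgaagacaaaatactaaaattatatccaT
mt-Co3 3' end: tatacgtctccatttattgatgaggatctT

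The mitochondrial share of all counts was highest in the 3 NT libraries. It was 0.817%, 0.709% and 0.656% in NT replicates 1 to 3. The PLX1X libraries held 0.483%, 0.522% and 0.486%, and the PLX3X_CD30 libraries held 0.497%, 0.529% and 0.493%. The PLX3X_CD0 libraries were lower, at 0.447%, 0.412% and 0.476%, and the IR libraries lowest, at 0.417%, 0.362% and 0.367%. Every treated library lay below every NT library, while IR and PLX3X_CD0 overlapped. The mean share relative to NT was 0.683 in PLX1X, 0.612 in PLX3X_CD0, 0.696 in PLX3X_CD30 and 0.525 in IR. Without NT replicate 1, whose share was the highest, these ratios were 0.728, 0.652, 0.742 and 0.560.

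**Figure D1:**
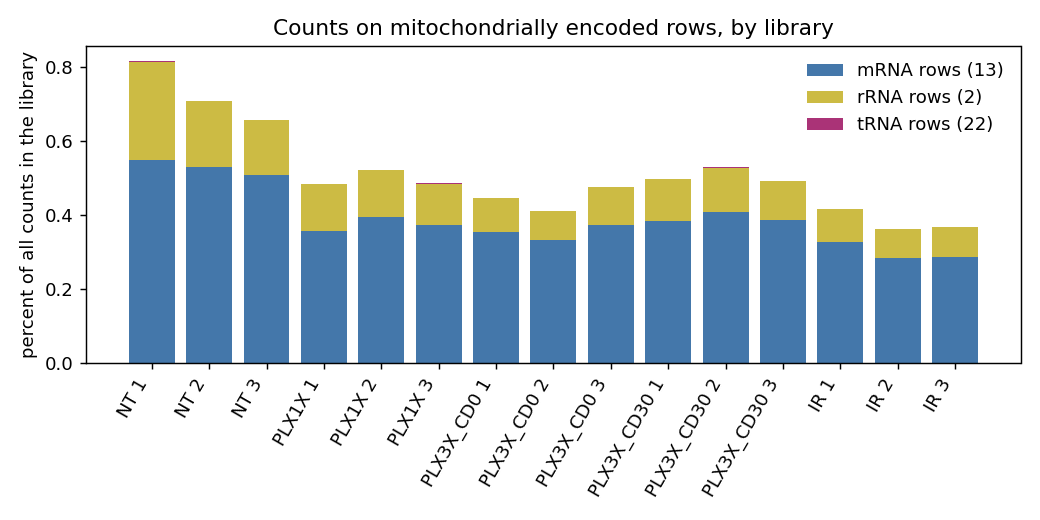
Counts on the 37 mitochondrially encoded rows as a percentage of all counts, for each of the 15 libraries, stacked by mRNA, rRNA and tRNA rows. The NT libraries sit between 0.656% and 0.817%, all above the treated libraries, whose highest value is 0.529%, and the tRNA rows are too few to see.

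The mRNA rows made up most of that share and varied less between NT libraries than the rRNA rows did. They held 0.529% ± 0.0208 of all counts in NT (SD, n = 3), 0.376% ± 0.0184 in PLX1X, 0.353% ± 0.0204 in PLX3X_CD0, 0.393% ± 0.0128 in PLX3X_CD30 and 0.299% ± 0.0237 in IR. The 2 rRNA rows held 0.197% ± 0.0611 in NT, 0.121% ± 0.00828 in PLX1X, 0.0915% ± 0.0119 in PLX3X_CD0, 0.113% ± 0.00763 in PLX3X_CD30 and 0.0828% ± 0.00652 in IR. In NT replicate 1 the ratio of rRNA to mRNA counts was 0.484, against 0.336 and 0.292 in the other two NT libraries and at most 0.349 in the treated ones. The chromosome 1 copies took 0.0549% of counts in that library, against 0.0346% and 0.0289% in the other two.

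Levels per length differed widely among the members although they come from shared precursors. Levels are given in NT as TMM-normalised CPM per kilobase of the row. Cytochrome b of complex III, mt-Cytb, was highest at 1350 ± 24.02 (SD, n = 3), and the large ribosomal RNA mt-Rnr2 followed at 1026 ± 269. The catalytic subunit of cytochrome c oxidase, mt-Co1, stood at 844 ± 39.3, and the complex I membrane subunit mt-Nd1 at 844 ± 19.1. The ranges of mt-Rnr2, mt-Co1 and mt-Nd1 overlapped, so their order is not resolved.

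Next came the complex I subunit mt-Nd4 at 325 ± 9.84, the small ribosomal RNA mt-Rnr1 at 250 ± 98.8 and mt-Nd5 at 238 ± 10.5. The range of mt-Rnr1 overlapped those of mt-Nd4, mt-Nd5 and mt-Nd2, so its place is not resolved. All NT libraries had mt-Nd4 above mt-Nd5. A lower tier held mt-Nd2 at 159 ± 23.1, mt-Co3 at 149 ± 23.1 and mt-Atp6 at 131 ± 28.4, followed by mt-Nd6 at 87.0 ± 2.56 and mt-Co2 at 84.2 ± 26.3. The lowest mRNA rows were mt-Nd4l at 11.3 ± 3.88, mt-Nd3 at 10.4 ± 6.48 and mt-Atp8 at 4.86 ± 1.30. The 5 members with nearly all read-length windows identical in a chromosome 1 copy lay between 10.4 and 149. Of the 8 other mRNAs, 6 stood at 159 or more, the exceptions being mt-Nd6 and mt-Atp8. Those 6 include mt-Nd4 and mt-Co1, where 59.2% and 23.6% of the windows are identical in a copy. The row of mt-Atp8 lies between mt-Co2 and mt-Atp6, and the nuclear sequence between the copies of those genes was not analysed here.

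**Figure D2:**
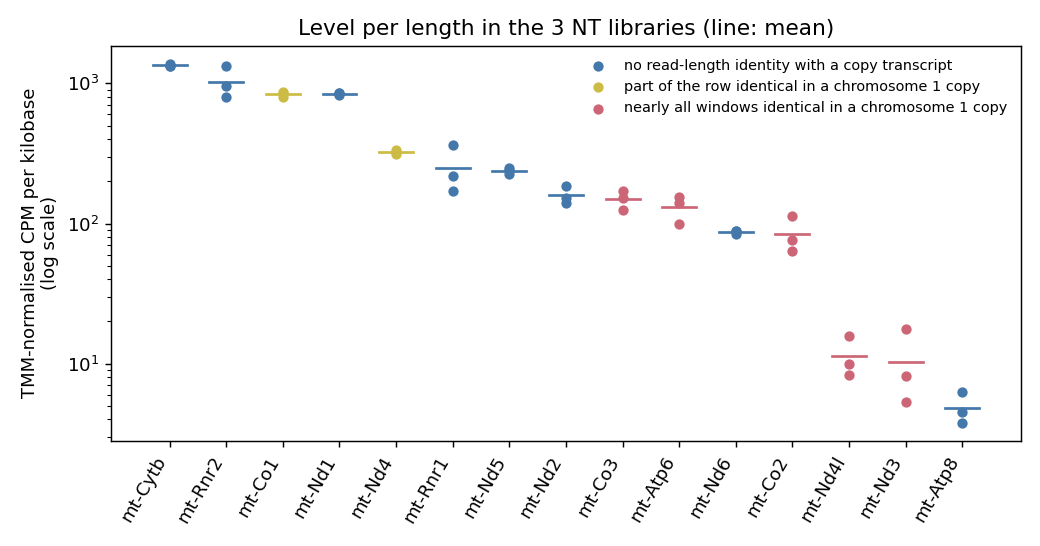
TMM-normalised CPM per kilobase (log scale) of the 13 mRNA and 2 rRNA rows in the 3 NT libraries, each point a library and each line the mean, coloured by how much of the row has an identical copy transcript on chromosome 1. The rows with nearly complete copies lie between means of 10.4 and 149, and mt-Cytb is highest at 1350.

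Differences between groups were tested for every gene with edgeR's quasi-likelihood test on all 15 libraries, adjusted over 21780 genes, and a gene was called at an adjusted p under 0.05. All 13 mRNA and both rRNA rows entered the test, and 9 of the 22 tRNA rows did. Differences are given as log2 fold changes ± standard error. Each of the 15 mRNA and rRNA rows had its highest group mean in NT, and 12 had their lowest in IR, the exceptions being mt-Co3, mt-Nd4 and mt-Nd4l. The 4 comparisons with NT share the same 3 NT libraries, so they are not independent of each other.

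In IR all 13 mRNAs and both rRNAs fell, from 1.29-fold lower for mt-Co3 to 4.54-fold lower for mt-Atp8, a row of about 1 CPM in NT. For 15 of 24 tested members called lower, the background is 30.6% of all genes called and 15.4% called lower. All 3 IR libraries lay below all 3 NT libraries for 16 of the 24, where 21.2% of all genes did so. The same held for 9 of 24 in PLX1X (16.1% of all genes), 15 in PLX3X_CD0 (16.7%) and 10 in PLX3X_CD30 (11.1%). The median difference was -0.71 over the 13 mRNAs and -0.05 over all genes tested. Of 24 members, 12 were called lower in PLX3X_CD0, with a background of 21.7% called and 9.53% called lower. The median over the mRNAs was -0.50 there, against -0.03 for all genes.

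PLX1X had 9 of 24 members called lower, with 18.1% of all genes called and 8.12% called lower. PLX3X_CD30 had 7 of 24, with 6.57% called and 1.84% called lower. No member was called higher in any of the 4 comparisons with NT. The median over the 13 mRNAs was -0.44 in PLX1X and -0.40 in PLX3X_CD30, against -0.04 and -0.02 for all genes. Called lower in all 4 comparisons were mt-Nd1, mt-Nd4, mt-Nd5, mt-Cytb, mt-Co1 and mt-Rnr2. Without NT replicate 3, the counts against NT were 17 in PLX1X, 19 in PLX3X_CD0, 13 in PLX3X_CD30 and 16 in IR, of 25 tested. Of all 22392 genes then tested, 1696, 2294, 539 and 3327 were lower in that order. Without NT replicate 1 the counts were 6, 9, 6 and 13 of 24, where 1623, 1678, 300 and 3000 of 22319 genes were lower. Without the 2 libraries high in choroid plexus markers, each left out alone, the count was 11 in PLX3X_CD0 and 12 in IR, each of 25. Lower then were 1526 of 22451 genes in PLX3X_CD0 and 2972 of 22520 in IR.

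**Figure D3:**
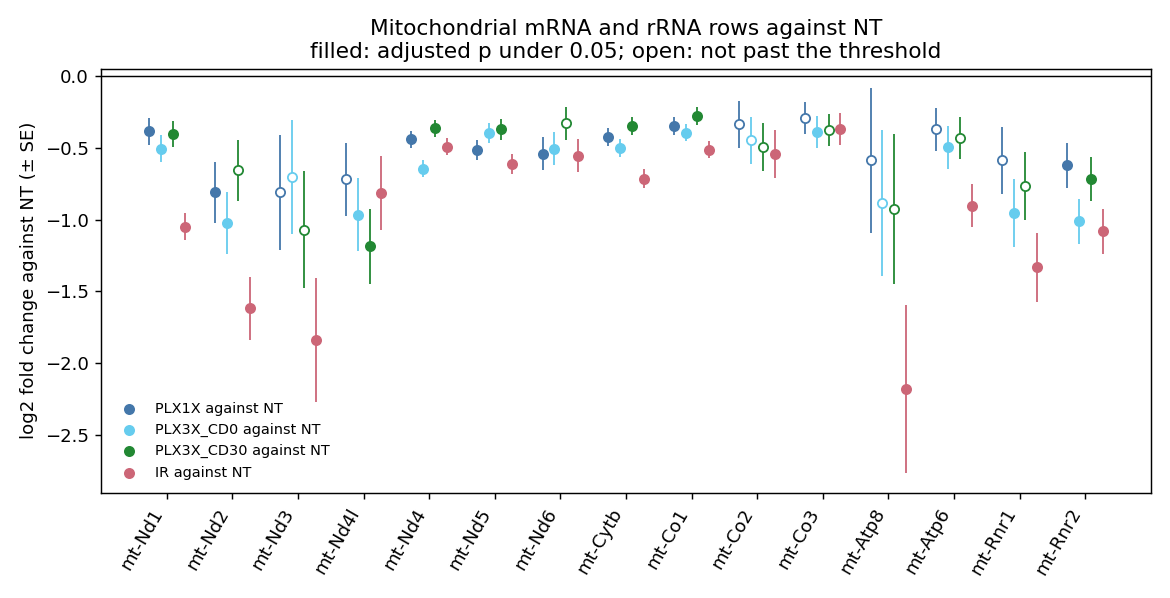
log2 fold change against NT with its standard error for the 13 mRNA and 2 rRNA rows in the 4 treated groups, filled where the adjusted p is under 0.05 and open where it is not. Every point lies below 0, and all 15 IR points are filled, from -0.37 for mt-Co3 to -2.18 for mt-Atp8.

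Base composition moved with these differences, most in IR. The 13 mRNA rows have a GC content of 31.9% to 41.1%, against a median of 49.2% over the genes tested. Among 2330 tested nuclear genes with a GC content at or below 41.1%, the median difference from NT was -0.45 in IR. This set was chosen after the values were seen. In IR 1006 of them were called lower and 33 higher, where 15.4% of all genes were lower and 15.1% higher. Against NT, the same nuclear genes had medians of -0.10 in PLX1X, -0.13 in PLX3X_CD0 and -0.11 in PLX3X_CD30. There 263 were lower and 188 higher in PLX1X, 349 and 151 in PLX3X_CD0, and 52 and 45 in PLX3X_CD30. Of all 21780 genes, 1768, 2075 and 400 were lower and 2171, 2657 and 1032 higher in that order. When each library was corrected for the length and GC content of transcripts, 7 of 24 members were called lower in IR, where 11.4% of all genes were under the same correction. These were mt-Nd1, mt-Nd2, mt-Nd3, mt-Cytb, mt-Atp6, mt-Rnr1 and mt-Rnr2. With the correction, 6 of 24 members were called lower in PLX1X (8.63% of all genes), 7 in PLX3X_CD0 (9.94%) and 2 in PLX3X_CD30 (2.41%). Only mt-Rnr2 was called in all 4 comparisons with NT under it. The IR differences of mt-Co3, mt-Nd4 and mt-Nd6 changed sign under it, to 0.09, 0.08 and 0.08.

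**Figure D4:**
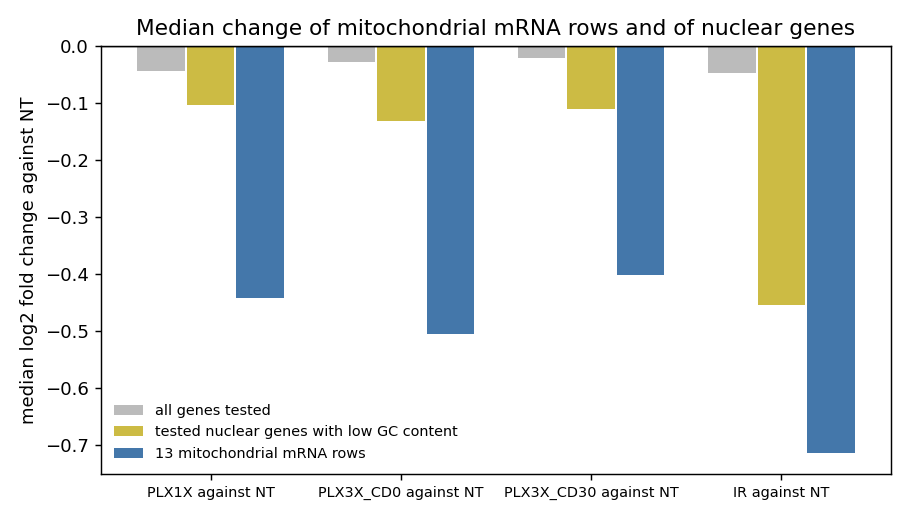
Median log2 fold change against NT in each treated group for all genes tested, for the 2330 nuclear genes with GC content at or below 41.1%, and for the 13 mitochondrial mRNA rows. The low-GC nuclear genes have a median of -0.45 in IR and of -0.10 to -0.13 in the PLX groups, while the mitochondrial mRNAs have medians of -0.40 to -0.71.

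Long RNAs that stay in the nucleus were counted beside them. Of 6 listed, 5 fell in IR (15.4% of all genes fell), 6 in PLX1X (8.12%), 3 in PLX3X_CD0 (9.53%) and 1 in PLX3X_CD30 (1.84%). Malat1, an abundant nuclear-retained RNA, fell by 1.65 ± 0.42 in IR (adjusted p = 0.0124). Its NT level was 439 CPM ± 334 (SD, n = 3) and its IR level 139 ± 10.2. What part composition of the RNA has in the mitochondrial differences was not tested.

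Complex I, which passes electrons from NADH to ubiquinone and pumps protons, takes 7 subunits from the mitochondrial genome. The subunit mt-Nd1 (chrM:2751-3707), which helps form the ubiquinone site, stood at 822, 814 and 787 CPM in NT and at 461, 345 and 364 in IR. Its levels were 573, 652 and 631 in PLX1X, 584, 510 and 614 in PLX3X_CD0 and 574, 652 and 608 in PLX3X_CD30. The 3 NT libraries were above all others, the 3 IR libraries below all others, and the PLX libraries lay between and overlapped. The difference from NT was -1.05 ± 0.09 in IR (adjusted p = 9.14e-07), -0.38 ± 0.09 in PLX1X (adjusted p = 0.00805), -0.50 ± 0.09 in PLX3X_CD0 (adjusted p = 0.000813) and -0.40 ± 0.09 in PLX3X_CD30 (adjusted p = 0.0157). The 3 PLX calls were lost with the length and GC correction, those in PLX1X and PLX3X_CD30 without NT replicate 1, and that in PLX3X_CD30 also without PLX3X_CD30 replicate 1 or 3.

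The membrane arm subunit mt-Nd2 (chrM:3914-4951) held 192, 157 and 147 CPM in NT and 71.3, 40.2 and 50.3 in IR. It held 89.7, 109 and 84.6 in PLX1X, 93.2, 62.4 and 88.0 in PLX3X_CD0 and 94.6, 115 and 105 in PLX3X_CD30. No treated library reached the NT range, and one IR library overlapped PLX3X_CD0. Against NT it fell by 1.62 ± 0.22 in IR (adjusted p = 0.000244), by 0.81 ± 0.21 in PLX1X (adjusted p = 0.0230) and by 1.02 ± 0.21 in PLX3X_CD0 (adjusted p = 0.00578). In PLX3X_CD30 the difference was -0.65 ± 0.21 (adjusted p = 0.0997). The PLX1X call was lost without NT replicate 1, PLX1X replicate 1 or PLX1X replicate 3.

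A different order was seen for mt-Nd4 (chrM:10167-11544), a proton-pumping subunit. It held 447, 462 and 435 CPM in NT and 330, 316 and 310 in IR. Its levels were 319, 333 and 338 in PLX1X, 277, 276 and 305 in PLX3X_CD0 and 346, 374 and 325 in PLX3X_CD30. Here the lowest libraries were those of PLX3X_CD0, and IR overlapped PLX1X and PLX3X_CD30. Against NT it fell by 0.65 ± 0.06 in PLX3X_CD0 (adjusted p = 3.45e-07), by 0.49 ± 0.06 in IR (adjusted p = 6.72e-06), by 0.44 ± 0.06 in PLX1X (adjusted p = 4.52e-05) and by 0.36 ± 0.06 in PLX3X_CD30 (adjusted p = 0.00125). With the length and GC correction the IR value became 0.08 and the PLX3X_CD30 call was lost.

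The largest mitochondrial subunit of complex I is mt-Nd5 (chrM:11742-13565), at 440, 451 and 414 CPM in NT and 314, 264 and 275 in IR. It held 301, 311 and 301 in PLX1X, 325, 299 and 366 in PLX3X_CD0 and 328, 343 and 338 in PLX3X_CD30. All treated libraries lay below all NT libraries. It fell by 0.61 ± 0.07 in IR (adjusted p = 4.92e-06), by 0.52 ± 0.07 in PLX1X (adjusted p = 6.55e-05), by 0.40 ± 0.07 in PLX3X_CD0 (adjusted p = 0.000449) and by 0.37 ± 0.07 in PLX3X_CD30 (adjusted p = 0.00422). The IR call was lost with the length and GC correction, where the difference was -0.12 (adjusted p = 0.130), while the 3 PLX calls held.

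Only mt-Nd6 (chrM:13552-14070) among the mRNAs is encoded on the minus strand, and its mature mRNA is known to lack a poly(A) tail. Whether counting used strand is not given in the sources used here, so antisense reads could not be told apart. It held 46.0, 45.8 and 43.6 CPM in NT, and between 24.6 and 37.1 in the 12 treated libraries, which do not overlap NT. It fell in IR by 0.55 ± 0.12 (adjusted p = 0.00157), in PLX1X by 0.54 ± 0.11 (adjusted p = 0.00357) and in PLX3X_CD0 by 0.50 ± 0.11 (adjusted p = 0.00429). The difference in PLX3X_CD30 was -0.33 ± 0.11 (adjusted p = 0.102). The PLX1X and PLX3X_CD0 calls were lost with the length and GC correction, and the IR value changed sign to 0.08.

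The small subunits mt-Nd3 (chrM:9459-9806) and mt-Nd4l (chrM:9877-10173) had few counts and near-identical nuclear copies. The row of mt-Nd3 held 6.15, 2.82 and 1.84 CPM in NT and 1.61, 0.780 and 0.577 in IR, which do not overlap (-1.84 ± 0.43, adjusted p = 0.00422). It was not called in a PLX group. The row of mt-Nd4l held 4.67, 2.97 and 2.47 CPM in NT and 1.77, 1.73 and 2.15 in IR, and fell in IR (-0.81 ± 0.26, adjusted p = 0.0223), PLX3X_CD0 (-0.97 ± 0.26, adjusted p = 0.0100) and PLX3X_CD30 (-1.19 ± 0.26, adjusted p = 0.0106). None of the 3 mt-Nd4l calls held with the length and GC correction, and those in IR and PLX3X_CD0 were lost without NT replicate 1. The IR call was also lost without IR replicate 1 or 2, and the PLX3X_CD30 call without PLX3X_CD30 replicate 1.

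Complex III has 1 mitochondrial subunit, cytochrome b, whose heme groups carry electrons between the quinone sites. The mRNA mt-Cytb (chrM:14145-15288) stood at 1531, 1576 and 1526 CPM in NT and at 1037, 884 and 904 in IR. It stood at 1096, 1192 and 1160 in PLX1X, 1082, 1028 and 1164 in PLX3X_CD0 and 1174, 1262 and 1207 in PLX3X_CD30. NT was above all other libraries, and IR overlapped only PLX3X_CD0. It fell by 0.71 ± 0.06 in IR (adjusted p = 4.49e-07), by 0.43 ± 0.06 in PLX1X (adjusted p = 0.000135), by 0.50 ± 0.06 in PLX3X_CD0 (adjusted p = 1.46e-05) and by 0.35 ± 0.06 in PLX3X_CD30 (adjusted p = 0.00312). With the length and GC correction the IR difference was -0.29 (adjusted p = 0.00830) and the PLX3X_CD30 call was lost.

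Complex IV, cytochrome c oxidase, takes its 3 core subunits from the mitochondrial genome. Its catalytic subunit mt-Co1 (chrM:5328-6872) stood at 1234, 1347 and 1330 CPM in NT and 998, 888 and 858 in IR. It stood at 980, 1038 and 1054 in PLX1X, 996, 940 and 1040 in PLX3X_CD0 and 1045, 1104 and 1081 in PLX3X_CD30. The NT libraries lay above all treated ones. The falls were 0.51 ± 0.06 in IR (adjusted p = 7.15e-06), 0.35 ± 0.06 in PLX1X (adjusted p = 0.000625), 0.39 ± 0.06 in PLX3X_CD0 (adjusted p = 0.000130) and 0.28 ± 0.06 in PLX3X_CD30 (adjusted p = 0.0114). The IR and PLX3X_CD30 calls were lost with the length and GC correction, and the latter also without PLX3X_CD30 replicate 1.

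The copper-binding subunit mt-Co2 (chrM:7013-7696) held 77.7, 51.9 and 43.2 CPM in NT and 38.0, 38.9 and 40.9 in IR. It passed only in IR (-0.54 ± 0.17, adjusted p = 0.0269), and that call was lost when any 1 of the 3 IR libraries was left out. The third core subunit, mt-Co3 (chrM:8607-9390), held 134, 119 and 97.9 CPM in NT, 89.0, 90.7 and 91.6 in IR and 91.7, 82.5 and 92.9 in PLX3X_CD0. It fell by 0.37 ± 0.11 in IR (adjusted p = 0.0209) and by 0.39 ± 0.11 in PLX3X_CD0 (adjusted p = 0.0202). Both mt-Co3 calls were lost when the counts of its chromosome 1 copy were added, an alternative added after the data were seen, and without NT replicate 1 or 2. Leaving out any IR library also lost the IR call, and leaving out PLX3X_CD0 replicate 2 the other. The IR call of mt-Co2 and both mt-Co3 calls were also lost with the length and GC correction.

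ATP synthase takes 2 membrane subunits from the mitochondrial genome. The proton channel subunit mt-Atp6 (chrM:7927-8607) held 105, 94.8 and 67.8 CPM in NT and 53.2, 43.3 and 46.4 in IR, with no overlap. It fell by 0.90 ± 0.15 in IR (adjusted p = 0.000619) and by 0.50 ± 0.15 in PLX3X_CD0 (adjusted p = 0.0301). The PLX3X_CD0 call was lost under 7 alternatives, among them the fits without NT replicate 1 or 2 and without each PLX3X_CD0 library. The short subunit mt-Atp8 (chrM:7766-7969) held 1.29, 0.916 and 0.774 CPM in NT and 0.378, 0.167 and 0.105 in IR (-2.18 ± 0.59, adjusted p = 0.00806). The call was lost with the length and GC correction (-1.47, adjusted p = 0.0602).

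The ribosomal RNAs varied among the NT libraries, with replicate 1 highest for both. The large subunit RNA mt-Rnr2 (chrM:1094-2675) held 2094, 1512 and 1265 CPM in NT and 843, 717 and 743 in IR. It held 1087, 1099 and 979 in PLX1X, 821, 691 and 901 in PLX3X_CD0 and 980, 1056 and 927 in PLX3X_CD30. NT did not overlap the treated groups, while IR overlapped PLX3X_CD0. It fell by 1.08 ± 0.16 in IR (adjusted p = 0.000260), by 0.62 ± 0.16 in PLX1X (adjusted p = 0.0155), by 1.01 ± 0.16 in PLX3X_CD0 (adjusted p = 0.000602) and by 0.72 ± 0.16 in PLX3X_CD30 (adjusted p = 0.0185). The PLX1X call was lost without PLX1X replicate 3, and the PLX3X_CD30 call without PLX3X_CD30 replicate 1 or 3.

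The small subunit RNA mt-Rnr1 (chrM:70-1024) held 345, 209 and 164 CPM in NT and 104, 89.4 and 90.8 in IR. It fell by 1.33 ± 0.24 in IR (adjusted p = 0.00169) and by 0.95 ± 0.24 in PLX3X_CD0 (adjusted p = 0.0153), where it held 125, 97.6 and 147. The PLX3X_CD0 call was lost without PLX3X_CD0 replicate 2. In PLX1X the difference was -0.59 ± 0.24 (adjusted p = 0.116) and in PLX3X_CD30 -0.77 ± 0.24 (adjusted p = 0.0862). The cDNA kit named in the labels primes on poly(A) tails, so the counts of ribosomal and transfer RNAs are those that such priming caught and are no measure of their amount.

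Transfer RNA rows were nearly empty. They held 61 to 250 counts per library in NT and 84 to 154 in IR, and no row had more than 51 counts in any library, the most being for mt-Tq. Their share of all counts was 0.00130%, 0.000444% and 0.000117% in NT replicates 1 to 3, highest in the shallowest library. In the 12 treated libraries it was 0.000190% to 0.000497%, inside the NT range. The rows of mt-Td, mt-Tg and mt-Tk had no count, and 10 further rows had too few counts to be tested, up to 83 over the 15 libraries for mt-Ta. Of the 9 tested, the row of proline transfer RNA, mt-Tp, was called in PLX1X against NT (-1.78 ± 0.60, adjusted p = 0.0473). Its levels were 2.24, 0.718 and 0.221 CPM in NT and 0.222, 0.377 and 0.246 in PLX1X, which overlap, and the call was lost under 8 alternatives. The gene lies on the minus strand (chrM:15356-15422), and its sequence is given with the anticodon in capitals because it is the only transfer RNA called.
mt-Tp: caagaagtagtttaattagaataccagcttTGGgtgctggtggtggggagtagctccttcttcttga

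Some members were also lower in IR than in the PLX groups. Against PLX1X, 6 of 24 members were lower in IR (28.5% of all genes called, 14.6% lower), namely mt-Nd1, mt-Nd2, mt-Cytb, mt-Atp6, mt-Rnr1 and mt-Rnr2. Against PLX3X_CD0, 3 of 24 were lower (21.5% of all genes called, 11.4% lower), which is close to the share of all genes lower. Against PLX3X_CD30, 6 of 24 were lower (16.5% of all genes called, 8.88% lower). The 2330 low-GC nuclear genes had medians of -0.33, -0.30 and -0.33 in IR against PLX1X, PLX3X_CD0 and PLX3X_CD30. The 13 mRNAs had medians of -0.21, -0.21 and -0.24 in that order. Of the low-GC genes, 857, 721 and 686 were called lower and 33, 25 and 5 higher. What part base composition has in these calls on members was not tested. The count against PLX3X_CD0 was 1 without PLX3X_CD0 replicate 1 and 5 without IR replicate 1, of 25 members tested each time. In those fits 1900 of 22451 and 2375 of 22520 genes were lower. The members lower against PLX3X_CD0 were mt-Nd1, mt-Nd5 and mt-Cytb, and those lower against PLX3X_CD30 were mt-Nd1, mt-Nd2, mt-Nd5, mt-Cytb, mt-Co1 and mt-Atp6. The calls of mt-Nd5, mt-Co1, mt-Nd2 and mt-Atp6 against these groups were each lost without IR replicate 3, and those of mt-Nd5 and mt-Co1 changed sign with the length and GC correction. Lower against each of the 3 PLX groups were mt-Nd1, by 0.67 ± 0.09, 0.55 ± 0.09 and 0.65 ± 0.09 in that order, and mt-Cytb, by 0.29 ± 0.06, 0.21 ± 0.06 and 0.37 ± 0.06. The adjusted p-values of mt-Nd1 were 5.97e-05, 0.000539 and 0.000295. With the length and GC correction mt-Nd1 was lower by 0.34, 0.34 and 0.38, with adjusted p-values of 0.0366, 0.0532 and 0.0449, and none of the mt-Cytb calls held. That correction also gave calls in the other direction. Under it 1 member was lower in IR than in PLX1X, mt-Nd1 (8.28% of all genes lower), and 2 were higher, mt-Nd4 by 0.36 and mt-Nd5 by 0.30 (7.32% of all genes higher). Against PLX3X_CD0 0 members were lower (4.13% of all genes) and 2 were higher, mt-Nd4 by 0.47 and mt-Rnr2 by 0.27 (5.51%). Against PLX3X_CD30 2 were lower, mt-Nd1 and mt-Nd2 (2.9% of all genes), and 0 higher. The mt-Cytb call against PLX3X_CD0, where the libraries overlap, was also lost without IR replicate 2 or 3 or PLX3X_CD0 replicate 1 or 3. The calls of mt-Nd2, mt-Atp6, mt-Rnr1 and mt-Rnr2 against PLX1X were each lost without IR replicate 2 or 3, PLX1X replicate 2 or, for the ribosomal RNAs, another PLX1X library, and also with the length and GC correction.

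Between the PLX groups 1 member was called. No member was called between PLX3X_CD0 and PLX1X by edgeR (2.46% of all genes called), with 3 at an unadjusted p under 0.05 and 1 called by DESeq2. None was called between PLX3X_CD30 and PLX1X by edgeR (1.21% of all genes called), with 1 at an unadjusted p under 0.05 and 0 called by DESeq2. Between PLX3X_CD30 and PLX3X_CD0, 1 of 24 was called higher (3.8% of all genes called, 1.87% higher). This was mt-Nd4, higher by 0.28 ± 0.06 in PLX3X_CD30 (adjusted p = 0.00765), a call lost without PLX3X_CD0 replicate 1, without PLX3X_CD30 replicate 2 and with the length and GC correction. Across all 5 groups, 13 of 24 members differed, where 39.1% of all genes did.

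The makeup of the mitochondrial counts also differed by group. Of all mitochondrial counts, mt-Nd1 took 10.5%, 9.20% and 9.56% in IR, below the other 12 libraries. The share of mt-Nd2 was 2.57%, 2.30% and 2.32% in NT and 1.63%, 1.07% and 1.32% in IR. Its mean share was 1.89% ± 0.199 (SD, n = 3) in PLX1X, 1.79% ± 0.269 in PLX3X_CD0 and 2.07% ± 0.136 in PLX3X_CD30, against 2.39% ± 0.152 in NT. The share of mt-Nd4 was 7.54%, 8.43% and 8.14% in IR, above all other libraries, whose highest was 7.04%. Thus mt-Nd1 lost and mt-Nd4 gained share in IR, while the mean share of mt-Nd2 was below that of NT in IR and in every PLX group. The share of mt-Cytb, at 23.7%, 23.6% and 23.7% in IR, lay inside the NT range of 20.4% to 24.1%.

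Ratios between members do not depend on library size. Of 5 ratios computed, chosen after the values were seen, mt-Nd1 to mt-Nd4 was 1.40, 1.09 and 1.17 in IR and 1.66 to 2.11 in the other 12 libraries. The ratio of mt-Nd2 to mt-Nd4 was 0.216, 0.127 and 0.162 in IR, also below the others, whose lowest was 0.226. The ratio of mt-Rnr1 to mt-Rnr2 averaged 0.123 in IR and 0.144 in NT. The mean ratio of mt-Nd5 to mt-Cytb was 0.302 in IR and also 0.302 in PLX3X_CD0. It was 0.282 in NT, 0.277 in PLX3X_CD30 and 0.265 in PLX1X. The mean ratio of mt-Nd6 to mt-Nd5 was 0.108 in IR and 0.104 in NT, with overlapping libraries. These are descriptions and were not tested.

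**Figure D5:**
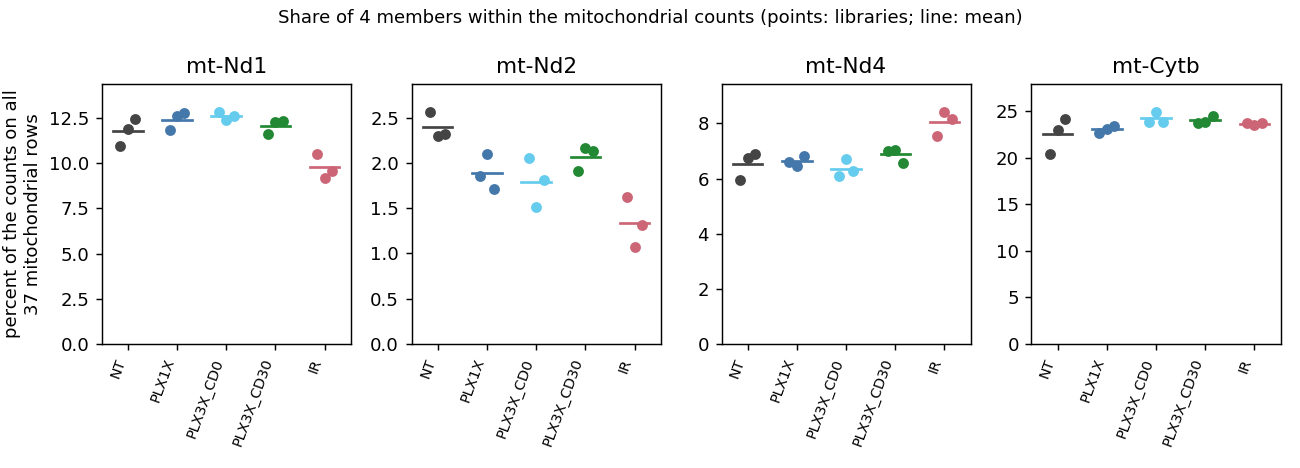
Percentage of all mitochondrial counts held by mt-Nd1, mt-Nd2, mt-Nd4 and mt-Cytb in each of the 15 libraries, each point a library and each line the group mean. The IR libraries are lowest for mt-Nd1 (9.20% to 10.5%) and highest for mt-Nd4 (7.54% to 8.43%), and lie inside the NT range for mt-Cytb.

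Of the 7 chromosome 1 copy rows, 5 fell in IR, where 15.4% of all genes did. In PLX1X 1 of the 7 fell (8.12% of all genes), in PLX3X_CD0 2 (9.53%) and in PLX3X_CD30 0 (1.84%). Those called in IR included Gm10925, which fell by 1.06 ± 0.24 (adjusted p = 0.00619), beside -0.90 for mt-Atp6. Not called there was Gm29216, the copy of the end of mt-Co1, at -0.06 ± 0.10 in IR (adjusted p = 0.696), where mt-Co1 itself fell by 0.51. Adding the copies to their members gave 9 calls in PLX1X, 11 in PLX3X_CD0, 7 in PLX3X_CD30 and 14 in IR against NT. These were of 24 members tested and all lower, as were 1767, 2074, 400 and 3360 of 21773 genes in that order.

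Nuclear genes of the same pathway held calls in both directions in IR and PLX3X_CD0. Values of named nuclear genes and counts of gene lists are without the length and GC correction throughout, and corrected values are not given. What part base composition has in these calls was not tested. Over all genes tested, 15.1% rose and 15.4% fell in IR, and 12.2% rose and 9.53% fell in PLX3X_CD0, and the counts of each list are to be read against those shares. Of 36 nuclear complex I subunits, 12 rose and 8 fell in IR, and 3 rose and 10 fell in PLX3X_CD0. Ndufs7, an iron-sulfur subunit, rose by 0.58 ± 0.07 in IR (adjusted p = 8.24e-06), while Ndufb5, an accessory subunit, was lower there (-0.51 ± 0.06). Of 9 nuclear complex III subunits, 6 rose and 2 fell in IR, the core subunit Uqcrc1 rising by 0.49 ± 0.07 and Uqcrb falling by 0.72 ± 0.07. Of 11 nuclear complex IV subunits, 6 rose and 3 fell in IR, and of 15 nuclear ATP synthase subunits, 3 rose and 1 fell. In PLX3X_CD0, 0 of the 11 complex IV subunits rose and 4 fell, and 1 of the 15 ATP synthase subunits rose and 5 fell.

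Genes that copy and transcribe the mitochondrial genome held calls in both directions in IR. The polymerase that transcribes it, Polrmt, rose by 0.44 ± 0.07 in IR and by 0.22 ± 0.07 in PLX3X_CD0 (adjusted p = 0.0276). Of the 9 listed transcription genes, 4 fell in IR, which were the initiation factor Tfb2m by 0.40 ± 0.11 and the regulators Mterf2, Mterf3 and Mterf4 by 0.49 ± 0.11, 0.65 ± 0.10 and 0.26 ± 0.08. None of the 9 passed in PLX1X or PLX3X_CD30. Of 10 genes for replication and upkeep of mitochondrial DNA, the polymerase Polg rose by 0.25 ± 0.07 in IR and the packaging factor Tfam fell by 0.24 ± 0.09 (adjusted p = 0.0445), as did the single-strand binding protein Ssbp1 by 0.38 ± 0.08. Of 77 mitochondrial ribosomal proteins, 9 rose and 16 fell in IR, where 15.1% and 15.4% of all genes did. Of 24 genes for processing and stability of mitochondrial RNA, 1 rose and 6 fell in IR, among them the poly(A) polymerase Mtpap by 0.47 ± 0.09. In PLX1X 2 of those 24 rose and 1 fell, where 9.97% of all genes rose and 8.12% fell.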

How the data were processed

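Frozen forebrain RNA was made into cDNA with a SMARTer Ultra Low kit, fragmented, and sequenced as paired reads of 150 bases, per the labels' protocols. The submitters' processing notes name DRAGEN, DESeq2 and mm10, and the deposited table holds raw counts per gene and CPM per library. The authors' CPM equals count over the library total (largest relative deviation 1.86e-08) and was not used. Of counts from 1 to 4, 70.6% to 74.7% were even, so mates of a pair seem to be counted separately, and precision is lower than the counts imply. Repeat rows (287, identical) were removed, and 0 columns lacked a sample.

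Members, gene lists and tests were chosen with earlier results of these data known. edgeR 4.0.16 (filterByExpr, TMM, robust quasi-likelihood fit, all 15 libraries, two-sided, Benjamini-Hochberg over 21780 genes) gave all tests. The 37 members could all be named, and from each pathway list up to 4 called genes of smallest adjusted p, or all of lists of at most 10 genes. On simulated data for PLX1X against NT (21302 genes), 95% of genes changed by 1 log2 unit and 61% of those changed by 0.5 were recovered. Changes were placed only in genes above a count floor, and every group was given the same spread. The recovery therefore does not cover low-count rows such as mt-Atp8 and the transfer RNAs, or unequal spread between groups. Copies were found with blastn 2.17.0 (at least 90% identity over 60 bases) in GENCODE M21 transcripts, which also gave the sequences and positions. Alternatives were DESeq2, RLE factors, other filters, mitochondrial rows left out of scaling, 6-library fits, a replicate block, a loess offset for length and GC (span 0.3), leaving out each library, and, added later, merged copies. Some marker results are not reported here.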

Additional observations from a re-analysis of the deposited data

How the results depend on the processing

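Of 883 re-computations of the 59 calls on single members, 755 kept direction and call, 121 kept direction and lost the call, and 7 changed sign, all 7 with the length and GC offset. Those 7 were, in IR against NT, mt-Co3 (0.093), mt-Nd4 (0.083) and mt-Nd6 (0.076), then mt-Cytb against PLX1X (0.015), mt-Nd5 against PLX3X_CD0 (0.10), and mt-Co1 (0.023) and mt-Nd5 (0.11) against PLX3X_CD30. With that offset the number of members called was 7 in PLX3X_CD0, 2 in PLX3X_CD30 and 7 in IR against NT, 3 in IR against PLX1X (2 higher, 1 lower), 2 in IR against PLX3X_CD0 (both higher), 2 in IR against PLX3X_CD30 (both lower), 0 between PLX3X_CD30 and PLX3X_CD0, and 8 across the 5 groups. Without the filter on low counts, 34 members and 40275 genes were tested. Members called were 15 in PLX1X and 15 in PLX3X_CD30 against NT, 2 in PLX3X_CD0 and 1 in PLX3X_CD30 against PLX1X. They were 10 in IR against PLX1X, 4 in PLX3X_CD30 against PLX3X_CD0 and 9 in IR against PLX3X_CD0. All genes called were, in that order, 4211, 2034, 1186, 696, 6110, 1395 and 4742. In that fit the median prior degrees of freedom were infinite, against 8.71 in the main fit. Most genes thus took the shared spread, so its counts cannot be set against the main ones. All 59 calls kept in it are among the 755. DESeq2 called 12 in PLX3X_CD30 against NT, 1 in PLX3X_CD0 against PLX1X, 2 in PLX3X_CD30 against PLX3X_CD0 and 7 in IR against PLX3X_CD0. Members tested there were 15, 15, 20 and 19. All genes called were 2125 of 16535, 1066 of 16535, 1209 of 20358 and 5096 of 19594. Fits on the 6 libraries compared lost 11 of the calls on single members and gave 1 in PLX3X_CD30 against PLX1X and 5 in IR against PLX3X_CD0. The cause of these moves was not tested.

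Leaving out 1 library gave 6 to 17 calls in PLX1X, 9 to 19 in PLX3X_CD0, 5 to 13 in PLX3X_CD30 and 12 to 16 in IR against NT, 2 to 8 in IR against PLX1X, 1 to 5 in IR against PLX3X_CD0, 2 to 6 in IR against PLX3X_CD30, 0 to 2 between PLX3X_CD30 and PLX3X_CD0, 0 in both remaining comparisons and 11 to 18 across the groups. Each such fit tested 24 or 25 members, and the number of all genes called moved too. In PLX1X against NT it ran from 2696 of 22467 genes to 3932 of 22392. The mitochondrial share relative to NT ranged from 0.651 to 0.728 in PLX1X, 0.583 to 0.652 in PLX3X_CD0, 0.664 to 0.742 in PLX3X_CD30 and 0.501 to 0.560 in IR. Same-numbered libraries did not deviate together in every pair of groups, so no pairing was used. This check could miss a link within some groups. Libraries that matched their own number best were 0 of 6 in PLX1X against NT and 5 of 6 in PLX3X_CD30 against NT. With a replicate block the counts against NT were 8, 12, 7 and 15, the 8 being without mt-Tp in PLX1X. RLE factors and leaving the mitochondrial rows out of scaling lost none of the 59 calls, and RLE factors added 1, mt-Atp8 in IR against PLX1X. Depth limits mt-Atp8, mt-Nd3, mt-Nd4l and the transfer RNAs. Near-identical copies limit mt-Co2, mt-Co3, mt-Atp6, mt-Nd3 and mt-Nd4l and, over part of the row, mt-Nd4 and mt-Co1.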
